A study of Mus musculus with 6 samples.

Results

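The proteasome is the large protease that degrades ubiquitin-tagged proteins, and its subunit genes were measured in the quadriceps, the large muscle at the front of the thigh, of nebulin heterozygous mice and of wild-type mice. The genes were chosen by a rule on their symbols, set with earlier results of these data known. It took every entry of the array table whose Entrez identifier carries a mouse symbol made of Psma, Psmb, Psmc or Psmd and a number. The immunoproteasome genes Psmb8, Psmb9 and Psmb10 were left out. The table held 31 such genes among 16492 gene probe sets, 1 probe set each: 11 of the 20S core, 6 of the ATPase ring and 14 Psmd genes, of which 8 encode lid subunits, 3 base subunits and 3 assembly factors. RefSeq lists 36 genes under this rule, and Psma3, Psma4, Psma5, Psmb3 and Psmb5 were not analysed here.

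The series holds Affymetrix expression arrays of 3 heterozygous mice (nebulin +/-) and 3 wild-type mice (nebulin +/+), 1 array per mouse, and its design sets the genotypes against each other. No treatment is recorded, and the sources used here do not give strain, age or sex. Neb encodes nebulin, a giant protein along the thin filament of the sarcomere. The heterozygous mice come from a nebulin knock-out line, and the whole muscle was extracted, so the RNA is from every cell type in it.

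The 26S proteasome consists of a barrel, the 20S core, capped by 19S regulatory particles. In the core, rings of alpha subunits (Psma genes) form the gate and rings of beta subunits (Psmb genes) hold the proteolytic sites. In the regulatory particle, a ring of ATPases (Psmc genes) unfolds substrates and opens the gate, while the non-ATPase subunits (Psmd genes) of the base bind ubiquitin and those of the lid remove it. In skeletal muscle this route degrades sarcomere proteins, and its genes are known to rise in many forms of muscle wasting. When proteasome activity is short, the transcription factor encoded by Nfe2l1 raises the subunit genes together through antioxidant response elements in their promoters.

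The promoters of 3 lid genes and of Psme4 are shown. Psmd8 and Psmd11 had the smallest p among the members whose promoter was at hand. Psmd12 was picked as a lid gene with both forms of the element, not for its difference. Psme4 is a proteasome activator gene that passed the test. Nfe2l2, a regulator of proteasome genes, passed too, and its promoter is not shown. Each window runs from 250 bases before to 50 bases after the annotated start and is from RefSeq, build GRCm38.p6, given on the strand of the gene from 5′ to 3′. Capitals mark matches to TGACNNNGC or TGAGNNNGC, forms of the antioxidant response element, or to CCAAT, on either strand. The windows lie at chr7:29180624-29180923, minus strand, at chr11:80428365-80428664, plus strand, at chr11:107479278-107479577, plus strand, and at chr11:30771525-30771824, plus strand.
Psmd8: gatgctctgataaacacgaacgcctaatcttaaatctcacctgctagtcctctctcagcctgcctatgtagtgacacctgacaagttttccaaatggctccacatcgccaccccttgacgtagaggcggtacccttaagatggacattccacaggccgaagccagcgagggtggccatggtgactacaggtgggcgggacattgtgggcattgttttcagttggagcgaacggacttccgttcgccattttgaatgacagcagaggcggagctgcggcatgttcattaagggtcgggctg
Psmd11: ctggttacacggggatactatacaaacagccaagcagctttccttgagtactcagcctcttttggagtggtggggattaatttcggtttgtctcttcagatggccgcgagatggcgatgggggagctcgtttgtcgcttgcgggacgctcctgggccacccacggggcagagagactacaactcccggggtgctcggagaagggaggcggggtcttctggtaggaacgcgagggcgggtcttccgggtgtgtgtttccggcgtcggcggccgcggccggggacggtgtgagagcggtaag
Psmd12: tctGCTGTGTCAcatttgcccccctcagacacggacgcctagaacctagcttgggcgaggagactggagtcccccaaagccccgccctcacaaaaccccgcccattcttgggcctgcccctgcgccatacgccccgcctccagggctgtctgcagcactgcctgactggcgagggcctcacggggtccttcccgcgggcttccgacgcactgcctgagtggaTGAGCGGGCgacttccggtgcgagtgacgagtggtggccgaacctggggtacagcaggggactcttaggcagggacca
Psme4: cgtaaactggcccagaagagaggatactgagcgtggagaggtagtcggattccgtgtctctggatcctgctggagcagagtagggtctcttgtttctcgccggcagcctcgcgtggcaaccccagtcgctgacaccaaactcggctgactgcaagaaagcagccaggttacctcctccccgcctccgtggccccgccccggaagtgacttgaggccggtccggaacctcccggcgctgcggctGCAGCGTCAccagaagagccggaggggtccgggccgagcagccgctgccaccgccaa
Psmd8 and Psmd11 hold none of the 3 motifs in these windows. Psmd12 holds TGACNNNGC at bases 4 to 12 on the opposite strand and TGAGNNNGC at bases 223 to 231 on its own strand, and Psme4 holds TGACNNNGC at bases 244 to 252 on the opposite strand, counted from 1 at the 5′ end of the window. RefSeq windows were at hand for 24 of the 31 genes, 26 windows in all. At least 1 form of the element was found in 11 of these 26 windows (42.3%), against 27.8% of all 32851 windows, and CCAAT in 10 (38.5%) against 37.4%. By form, TGACNNNGC was in 4 windows (15.4%, against 12.4%) and TGAGNNNGC in 9 (34.6%, against 17.6%). Counted by gene, since some genes have more than 1 window, 10 of 24 held either form, against 8314 of 27025. None of the printed windows holds CCAAT, and a match says only that these letters are present.

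The deposited values are log2 signals, forced to one distribution on all 6 arrays, which spans 5.56 to 14.81 around a median of 7.23. With 3 arrays per genotype, precision is limited throughout. On the second principal component, with 16.1% of the variance, heterozygous mouse 1 was far from the rest, at 7.59 where these ran from -3.78 to 2.40, so differences whose call or sign changes without this mouse are given both ways. Skeletal muscle markers were bright, and Acta1, skeletal actin, held the highest value of 14.81 on every array. Neb itself had a log2 difference of -0.22 (heterozygous minus wild type, limma adjusted p = 0.161; -0.31 and 0.0399 without heterozygous mouse 1), and where its probes lie relative to the deleted part is not given, so this does not check the labels. Summed on the linear scale, the markers of skeletal muscle (9 genes), leukocytes (8), fibroblasts (6), endothelium (6), adipocytes (5) and red cells (2) overlapped between the genotypes, and none of their tested genes passed. The brightest muscle markers hardly moved between arrays, and Acta1 and Mylpf were equal on all 6. The overlap of the muscle sum therefore cannot show equal muscle content. Of the 9 muscle markers 4 were negative and 2 positive, with Myh4 at -0.26, Myh1 at -0.18 and Actn3 at 0.064. With the replicate number as a block, the endothelial receptor gene Kdr passed (-0.25, limma adjusted p = 0.0174, against 0.0575 without the block). The adipocyte gene Fabp4 also passed with the block (-0.22, adjusted p = 0.0364, against 0.0676 without it). The other 4 adipocyte markers were positive, and the median of all 5 was 0.13, with Lep the highest at 0.52 (limma adjusted p = 0.108). Of the 6 fibroblast markers 4 were positive and 2 negative, with a median of 0.062, and Col1a1 was the highest at 0.39 (limma adjusted p = 0.157). Of the 6 endothelial markers 5 were negative, with a median of -0.14, and their part in the results below was not tested. Fewer cells of a type and less RNA per cell cannot be told apart in such bulk samples.

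None of the proteasome subunit genes passed the test, and more of them lay lower than higher in heterozygous muscle. Of the 31 genes, 29 were above the limit for dim probe sets, a mean of 6.74 over the 6 arrays. With limma, which shares the estimate of variance across all probe sets, and an adjusted p of 0.05 over 11544 probe sets, 0 of the 29 were called, where 3.11% of all tested probe sets were. With the replicate number as a block, 0 of the 29 were called against a background of 4.95%. Without heterozygous mouse 1, 2 were called, Psmd8 and Psmd11. At an unadjusted p under 0.05 there were 10 of 29 (34.5%), each lower in heterozygous muscle, against 20.5% of all tested probe sets in either direction. Without heterozygous mouse 3 there were 6 of 29, against 17.1%. The difference was negative for 19 of the 29 (65.5%, against 50.6% of all tested probe sets), and for 16 of the 29, against 51.2%, without heterozygous mouse 3. The median log2 difference was -0.045 for the members, and -0.028 without heterozygous mouse 3, and it was -0.0013 for all tested probe sets.

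The separation of the genotypes was lopsided among the members. In 11 of the 29 (37.9%) every heterozygous mouse lay below every wild-type mouse, against a background of 13.2% of tested probe sets. In 1 of the 29, Psmc6, every heterozygous mouse lay above, against a background of 13.1%. Without heterozygous mouse 1, 13 members were apart in the lower direction, and the background was 20.4%. The counts of negative, nominally different and separated members were chosen after the data were seen, and no test of the list was made.

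**Figure D1:**
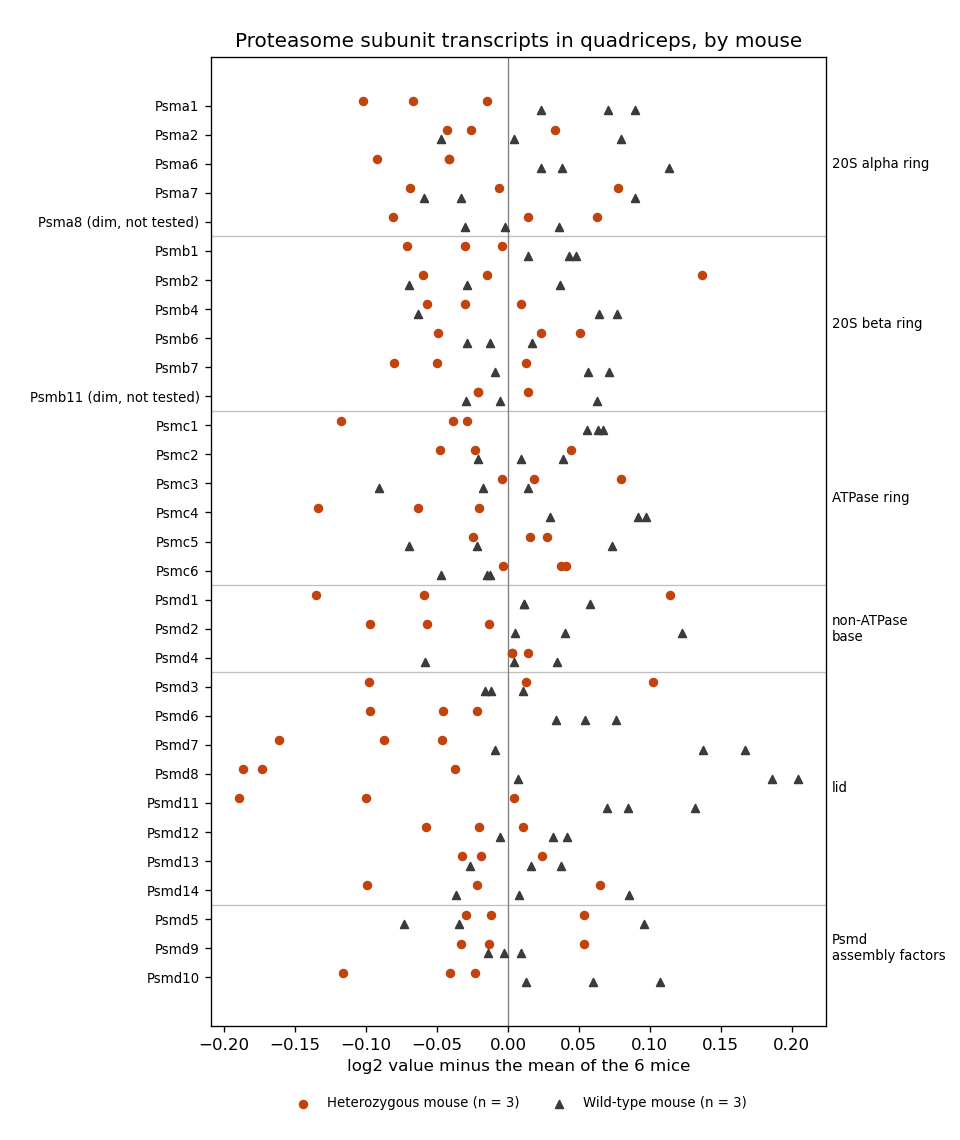
Log2 value of each of the 31 subunit genes in each mouse, minus that gene's mean over the 6 mice (x axis, log2 units), by gene (y axis) and part of the complex; circles are the 3 heterozygous mice and triangles the 3 wild-type mice. In 11 tested genes, among them Psmd7, Psmd8 and Psmd11 of the lid, every circle lies left of every triangle, and in Psmc6 every circle lies right.

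The differences were small for every member. They ran from -0.27 to 0.063 on the log2 scale, with a median SE of 0.043. The unadjusted 95% confidence intervals of 28 of the 29 lay wholly inside a 1.3-fold change in either direction, a bound chosen after the data were seen. The exception was Psmd8 of the lid, with a lower end of -0.41. Within a genotype the members varied about as much as other transcripts, with a median SD of 0.046 in heterozygous and 0.043 in wild-type mice, against 0.053 and 0.047 for all tested probe sets. The lid genes varied more in heterozygous mice, with a median SD of 0.070, and less in wild-type mice, at 0.033.

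Of the 11 genes of the 20S core, 9 were tested. The median difference of these 9 was -0.052 (-0.033 without wild-type mouse 2), and 6 were negative (66.7%, against 50.6% of all tested probe sets). The genotypes were apart in the lower direction in 3, Psma1, Psma6 and Psmb1 (33.3%, against 13.2% of all tested probe sets). Psma8 and Psmb11, which encode the alpha subunit of the testis proteasome and the beta subunit of the thymus proteasome, were too dim in this muscle to be tested. Psma8 averaged 6.16 ± 0.07 in heterozygous muscle, against 6.17 ± 0.03 in wild-type muscle, and Psmb11 averaged 6.42 ± 0.02 against 6.44 ± 0.05 (means ± SD of 3 mice per genotype).

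Of the alpha ring, Psma1 measured 10.61, 10.56 and 10.52 in heterozygous mice 1 to 3, against 10.72, 10.70 and 10.65 in wild-type mice 1 to 3. The groups did not overlap, and the log2 difference was -0.12 ± 0.04 (SE; 95% interval -0.21 to -0.032; limma adjusted p = 0.131). Psma6 measured 11.42, 11.42 and 11.37 in heterozygous mice and 11.57, 11.48 and 11.50 in wild-type mice, again apart, with a difference of -0.12 and an adjusted p of 0.146. The other 2 tested alpha genes overlapped, Psma2 at a difference of -0.024 and Psma7 at 0.0016 (adjusted p = 0.802 and 0.990).

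Of the beta ring, only Psmb1, a subunit with no proteolytic site, had groups apart. It measured 10.99, 11.02 and 10.95 in heterozygous mice and 11.07, 11.07 and 11.04 in wild-type mice, a difference of -0.070 (limma adjusted p = 0.310). Of the genes of the catalytic subunits, Psmb6 and Psmb7 were analysed and Psmb5 was not. Psmb6 and Psmb7 had differences of opposite sign, and neither passed. Psmb7, which carries the trypsin-like site, measured 9.73, 9.82 and 9.76 in heterozygous mice and 9.80, 9.87 and 9.88 in wild-type mice (-0.079, adjusted p = 0.323). Psmb6, which carries the caspase-like site, measured 11.89, 11.91 and 11.81 in heterozygous mice and 11.85, 11.88 and 11.83 in wild-type mice (0.017, adjusted p = 0.854). In both genes the genotypes overlapped. The structural subunit genes Psmb4 and Psmb2 lay at -0.052 and 0.041 (adjusted p = 0.573 and 0.725), and in Psmb2 heterozygous mouse 1 stood above the other 5 mice, at 10.29. Without that mouse the difference of Psmb2 was -0.017.

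All 6 genes of the ATPase ring were tested. The differences of 3 were negative and of 3 positive, none passed, and differences between the ring's genes were not tested. Their median was -0.0027, and its sign was not stable, at -0.019 without wild-type mouse 1 and 0.025 without wild-type mouse 2. Psmc4 measured 9.63, 9.59 and 9.52 in heterozygous mice, against 9.75, 9.74 and 9.68 in wild-type mice, with no overlap. Its log2 difference was -0.15 ± 0.04 (SE; 95% interval -0.24 to -0.048; limma adjusted p = 0.105). Psmc1, whose product has a tail that opens the core's gate, measured 11.21, 11.20 and 11.12 in heterozygous mice, all below the wild-type mice, whose lowest value was 11.295 and highest 11.31. Its difference was -0.12 (adjusted p = 0.118).

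Psmc6 went the other way, at 11.13, 11.12 and 11.08 in heterozygous mice and 11.04, 11.07 and 11.07 in wild-type mice (0.050, limma adjusted p = 0.459). It was the only tested member with every heterozygous mouse above every wild-type mouse. Psmc3 had the largest positive difference of the members, at 11.33, 11.27 and 11.25 in heterozygous mice and 11.16, 11.27 and 11.23 in wild-type mice (0.063, adjusted p = 0.441), and its groups overlapped. Psmc2 and Psmc5 lay near 0, with differences of -0.017 and 0.012 (adjusted p = 0.843 and 0.909).

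The lid held the largest differences. All 8 lid genes were tested, with a median difference of -0.077. Of these, 7 were negative (87.5%, against 50.6% of all tested probe sets). The genotypes were apart in the lower direction in 4, Psmd6, Psmd7, Psmd8 and Psmd11 (50%, against 13.2% of all tested probe sets). Psmd8 encodes a lid subunit needed for the last step of lid assembly. It measured 11.69, 11.56 and 11.54 in heterozygous mice, against 11.74, 11.94 and 11.92 in wild-type mice. Wild-type mouse 1 was the nearest to the heterozygous group, and the groups did not overlap. The log2 difference was -0.27 ± 0.06 (SE; 95% interval -0.41 to -0.12), a level of 0.832 times wild type, with a limma adjusted p of 0.0643. It passed without heterozygous mouse 1 (-0.31, adjusted p = 0.0361) and with array weights (-0.29, adjusted p = 0.0374), and with the replicate number as a block the adjusted p was 0.0792.

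Psmd11 encodes a lid subunit that stabilises the contact with the core and whose level is known from human embryonic stem cells to limit 26S assembly. It measured 10.37, 10.18 and 10.27 in heterozygous mice, against 10.44, 10.45 and 10.50 in wild-type mice, with no overlap. The difference was -0.19 ± 0.05 (SE; 95% interval -0.31 to -0.071; limma adjusted p = 0.0892), and without heterozygous mouse 1, the highest of its group, it was -0.24 and passed (adjusted p = 0.0309). Psmd7, the partner of the lid's deubiquitinase, measured 10.41, 10.37 and 10.30 in heterozygous mice and 10.45, 10.63 and 10.60 in wild-type mice. Its groups were apart, the nearest values being heterozygous mouse 1 and wild-type mouse 1, and its difference was -0.20 ± 0.05 (adjusted p = 0.0935). Psmd6 measured 11.45, 11.38 and 11.43 in heterozygous mice and 11.53, 11.51 and 11.55 in wild-type mice (-0.11, adjusted p = 0.145).

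The other 4 lid genes overlapped between the genotypes. Psmd14, the deubiquitinase itself, had a difference of -0.037 (limma adjusted p = 0.730), and of -0.079 without heterozygous mouse 1. Psmd12 and Psmd13 had differences of -0.045 and -0.018 (adjusted p = 0.531 and 0.829). Psmd3 was at 10.05, 9.85 and 9.96 in heterozygous mice and 9.93, 9.96 and 9.94 in wild-type mice, a difference of 0.012 (adjusted p = 0.926), with the heterozygous mice on both sides of the wild-type mice, and it was -0.037 without heterozygous mouse 1.

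**Figure D2:**
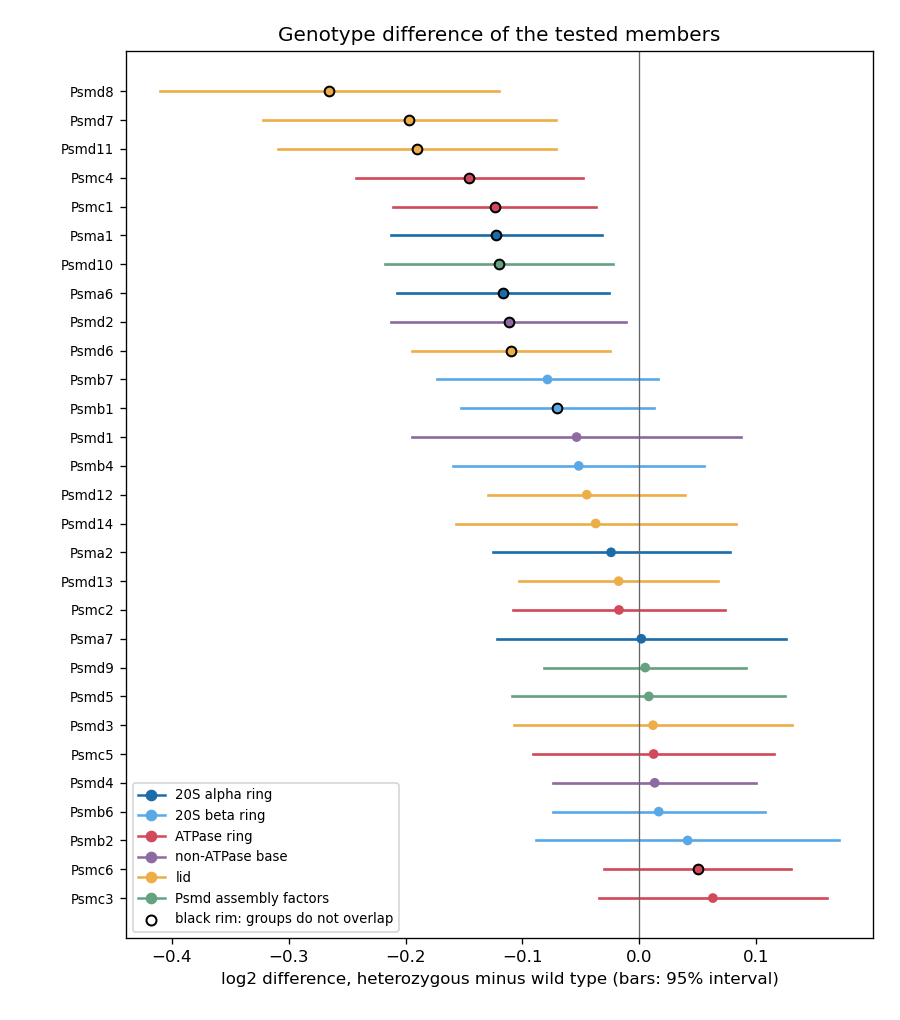
Log2 difference, heterozygous minus wild type (x axis), of the 29 tested subunit genes (y axis, most negative at the top), with the unadjusted 95% confidence interval from limma as a bar and the part of the complex as colour; a black rim marks genes whose genotypes do not overlap. The 3 lid genes Psmd8, Psmd7 and Psmd11 lead at -0.27, -0.20 and -0.19, and Psmc3 ends the order at 0.063.

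The non-ATPase base and the assembly factors complete the Psmd genes. Over all 14 Psmd genes the median difference was -0.049, and it was -0.10 without heterozygous mouse 1. Psmd2, a base scaffold that docks ubiquitin carriers, measured 10.23, 10.15 and 10.19 in heterozygous mice, against 10.29, 10.25 and 10.37 in wild-type mice. The groups were apart and the difference was -0.11 (limma adjusted p = 0.201). The other scaffold gene, Psmd1, had a difference of -0.054 and the ubiquitin receptor gene Psmd4 one of 0.013 (adjusted p = 0.663 and 0.881), both with overlap. In Psmd1 heterozygous mouse 1 was the highest of all 6 mice, at 11.30, and the other heterozygous mice were the lowest, at 11.13 and 11.05. Without that mouse the difference of Psmd1 was -0.12 (adjusted p = 0.153).

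Psmd5, Psmd9 and Psmd10 encode chaperones that hold the ATPases during assembly and leave the finished particle. Psmd10, also known as gankyrin, measured 7.98, 7.96 and 7.89 in heterozygous mice and 8.02, 8.11 and 8.06 in wild-type mice, with no overlap and a difference of -0.12 (limma adjusted p = 0.162). Psmd5 and Psmd9 had differences of 0.0080 and 0.0050 (adjusted p = 0.947 and 0.955), with overlapping groups.

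The shift was also read mouse by mouse, as the median over the 29 tested members of each value minus that gene's mean over the 6 mice. These medians were -0.020, -0.022 and -0.050 in heterozygous mice 1 to 3, against -0.0028, 0.037 and 0.032 in wild-type mice 1 to 3. Wild-type mouse 1 was thus nearest to the heterozygous mice. Of the 29 genes, 19, 18 and 24 lay below the mean of the 6 mice in heterozygous mice 1 to 3, against 15, 4 and 9 in wild-type mice 1 to 3. The Psmd genes had medians of -0.014, -0.050 and -0.057 in heterozygous mice and 0.0022, 0.034 and 0.068 in wild-type mice. These did not overlap, whereas the medians of the 20S core and of the ATPase ring did. The nearest Psmd medians, -0.014 and 0.0022, lay closer together than the SD of these medians between mice of a genotype, 0.029. Differences between the parts of the complex were not tested.

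**Figure D3:**
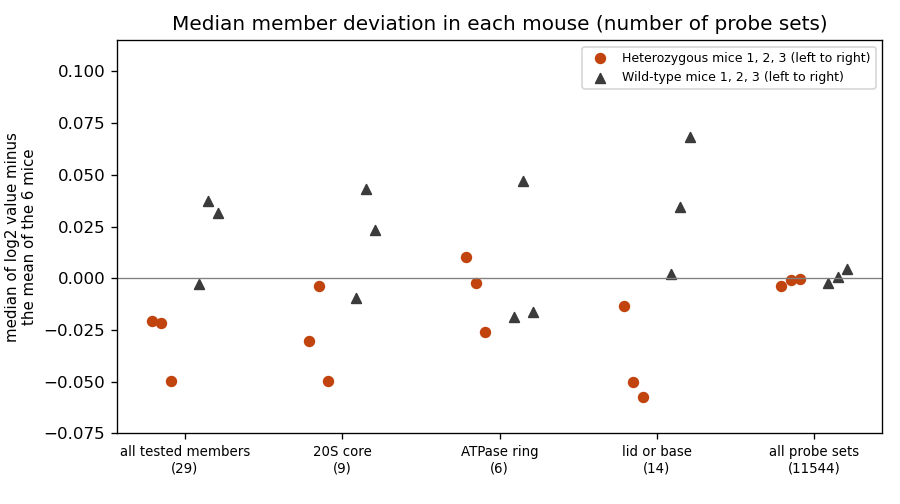
Median over the tested genes of each set of the log2 value minus the gene's mean over the 6 mice (y axis), for each mouse, by set (x axis, with its number of probe sets); circles are heterozygous and triangles wild-type mice, 1 to 3 from left to right. The heterozygous mice lie at -0.020, -0.022 and -0.050 over all tested members and the wild-type mice at -0.0028, 0.037 and 0.032, while over all probe sets every mouse lies near 0.

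Genes that act with the proteasome were described from 8 lists of 54 genes, of which 44 were on the array and all were tested; the 4 ubiquitin genes were not analysed here. In these lists 2 genes passed (4.55%, against a background of 3.11% of all tested probe sets), 1 lower and 1 higher. The inducible catalytic subunits of the immunoproteasome, which replace those of the core in immune cells and under interferon, had no difference beyond their spread. Psmb8 measured 7.83, 7.92 and 7.98 in heterozygous mice and 7.99, 7.89 and 7.76 in wild-type mice (0.032, limma adjusted p = 0.819). Psmb9 and Psmb10 had differences of 0.0033 and 0.044 (adjusted p = 0.985 and 0.700), with overlap in all 3.

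Psme4 encodes PA200, an activator that caps the core in place of the regulatory particle. It measured 10.74, 10.69 and 10.66 in heterozygous mice, against 10.91, 10.96 and 10.94 in wild-type mice, with a gap between the groups. It fell, with a log2 difference of -0.24 ± 0.04 (SE; 95% interval -0.33 to -0.15; limma adjusted p = 0.0208), the only 1 of 5 activator and inhibitor genes to pass. The call held without heterozygous mouse 1 (adjusted p = 0.0182) but was lost without heterozygous mouse 2 or 3 (0.0667 and 0.0771) and without wild-type mouse 1, 2 or 3 (0.0540, 0.0733 and 0.0596). The inhibitor gene Psmf1 had a difference of -0.052 (adjusted p = 0.475).

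Among 7 regulators of proteasome genes, Nfe2l2 rose. It encodes the oxidative stress factor NRF2, which binds antioxidant response elements. It measured 10.07, 9.97 and 9.90 in heterozygous mice, against 9.59, 9.76 and 9.67 in wild-type mice, with no overlap. The log2 difference was 0.31 ± 0.06 (SE; 95% interval 0.17 to 0.44; limma adjusted p = 0.0326). The call held without heterozygous mouse 1 (0.0457) but was lost without heterozygous mouse 2 or 3 (0.0941 and 0.0671) and without wild-type mouse 1, 2 or 3 (0.101, 0.0561 and 0.0862). Bach1, a repressor at the same elements, had a difference of -0.14 (adjusted p = 0.298). Nfe2l1, picked out after its values were seen, had a difference of 0.062 (adjusted p = 0.590).

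The other lists held no call. Of 5 chaperones that build the 20S core, Psmg2 had a difference of -0.15 and Pomp, which matures the beta ring, one of 0.13 (limma adjusted p = 0.185 and 0.241). Of 7 further subunits and bound factors, the deubiquitinase gene Uchl5 had a difference of -0.12, with its groups apart, and the small lid subunit gene Sem1 one of -0.058 (adjusted p = 0.191 and 0.465). In all lists, 4 of 44 genes were apart in the lower direction, Uchl5, Ube2d1, Nploc4 and Psme4 (9.09%, against 13.2% of all tested probe sets). In the higher direction 3 were apart (6.82%, against 13.1%). Of 11 genes of ubiquitin activation and conjugation, Ube2d1 and Ube2n had differences of -0.13 and -0.062 (adjusted p = 0.224 and 0.501). Of 6 genes that carry or extract substrates, 5 were negative (83.3%, against 50.6% of all tested probe sets), with a median of -0.072. Over all 44 genes of the 8 lists, 24 were negative (54.5%), with a median of -0.0084. Rad23b, a carrier of ubiquitin-tagged proteins, had a difference of -0.16 (adjusted p = 0.269; -0.25 and 0.0423 without heterozygous mouse 1), and Nploc4, a cofactor of the segregase, one of -0.12 (adjusted p = 0.254).

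**Figure D4:**
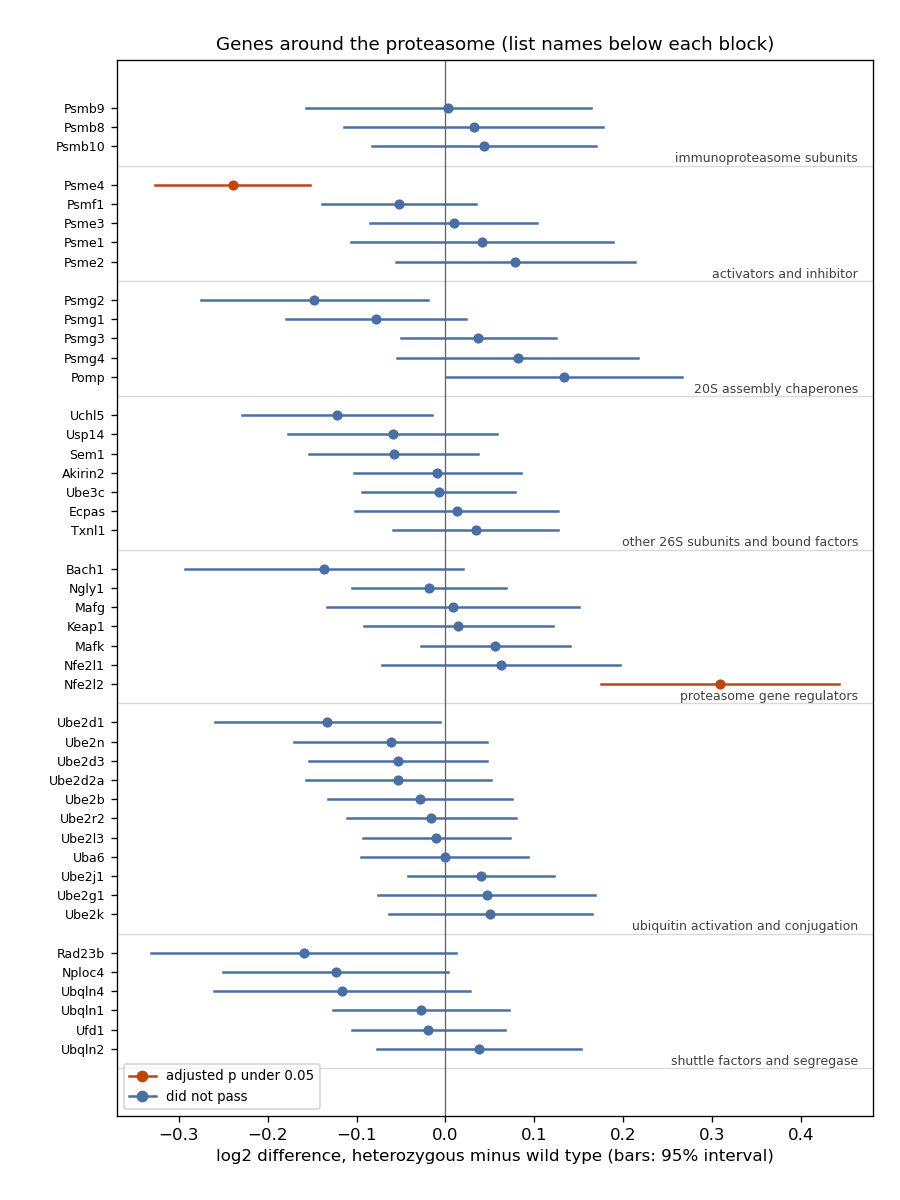
Log2 difference, heterozygous minus wild type (x axis), of 44 genes that act with the proteasome (y axis), by list, with the unadjusted 95% confidence interval from limma as a bar; red marks an adjusted p under 0.05. Psme4 at -0.24 and Nfe2l2 at 0.31 are the only 2 red genes.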

How the data were processed

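Quadriceps RNA of 6 mice was measured on Affymetrix arrays with biotinylated cRNA, per the labels' protocols. The authors deposited log2 values, 1 column per array, and all columns hold the same sorted values (largest difference 0), as quantile normalization leaves them, so a change common to all transcripts cannot appear. The sources used here do not give the summarising software, its background correction or the genome build.

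Genes were named through the platform annotation (15270 of 16492 gene probe sets; 1222 unnamed here) with symbols of RefSeq. Probe sets with a mean above the 30th percentile were tested (11544) with limma 3.58.1 in R 4.3.3 (lmFit, eBayes), as heterozygous minus wild type; p-values were adjusted over all of them by Benjamini-Hochberg, with a threshold of 0.05. The fit was tested on simulated data. All members, called genes of the lists and the 2 genes of each list with the smallest p were named.

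Members, lists and tests were chosen with earlier results of these data known. Each sample is a mouse of its own, per the labels. Same-numbered mice of both genotypes deviated together (r = 0.187, 0.234 and 0.129), so the number was also fitted as a block. Cross-hybridisation between related genes was not assessed. Alternatives were other filters, cyclic loess, a variance trend, array weights, the block and leaving out each mouse.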

Additional observations from a re-analysis of the deposited data

How the results depend on the processing

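Of 348 comparisons of a member with an alternative setting, 327 kept the direction and the side of the threshold, 18 changed sign and 3 passed, those of Psmd8 with array weights and of Psmd8 and Psmd11 without heterozygous mouse 1. The number of members called was 0 with other filters, cyclic loess, a variance trend or the replicate block, 1 with array weights and 0 to 2 when a mouse was left out. With the block, 572 probe sets were called over all genes, against 359 without it, and it changed no call among the proteasome genes. When a mouse was left out, the count over all genes ran from 84 to 503, that of members with an unadjusted p under 0.05 from 6 to 11, that of negative members from 16 to 23, the median of all tested members from -0.059 to -0.028, of the 20S core from -0.063 to -0.033, of the ATPase ring from -0.019 to 0.025 and of the Psmd genes from -0.10 to -0.031, and the difference of Neb from -0.31 to -0.13. Without a filter on dim probe sets, Psma8 and Psmb11 entered and the median of the 20S core was -0.024. The median of the ATPase ring was 0.0037 with cyclic loess. Psma7 was -0.011 with array weights. The genes whose sign changed when a mouse was left out had these lowest and highest log2 differences: Psma2 -0.054 to 0.0094, Psma7 -0.037 to 0.047, Psmb2 -0.017 to 0.082, Psmb6 -0.0048 to 0.045, Psmc2 -0.044 to 0.0021, Psmc5 -0.020 to 0.052, Psmd1 -0.12 to 0.00061, Psmd3 -0.037 to 0.063, Psmd4 -0.013 to 0.034, Psmd5 -0.027 to 0.058, Psmd9 -0.021 to 0.023, Psmd14 -0.079 to 0.0029, Psmb8 -0.027 to 0.086, Psmb9 -0.065 to 0.077 and Psmb10 -0.0093 to 0.088. The cause of these changes was not tested. The arrays carry no depth, and differences in dim probe sets are harder to see.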
